A study of Mus musculus with 6 samples.

Results

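The genes described are 10 Polycomb and Trithorax regulators of Hox genes, namely Ezh1, Ezh2, Eed, Suz12, Bmi1, Kdm6a, Kdm6b, Kmt2a, Men1 and Dot1l, taken by symbol from a count table of 54532 mouse genes. All 10 were among the 13352 genes that passed the filter on low counts. They were measured by RNA-seq in AE9a leukemia cells from 2 regions of the bone marrow of C57BL/6 leukemia mice, with 3 libraries from the central bone marrow (CBM), which is flushed out of the bone, and 3 from the endosteal bone marrow (EBM), which is released from the flushed bone by collagenase. AE9a is a shortened splice form of the AML1-ETO fusion protein of acute myeloid leukemia. Both groups carried the same lesion, a retrovirus with AE9a introduced into c-Kit+ stem and progenitor cells, and came from the third round of transplantation, so the cells descend from an established leukemia and not from separate transductions. Recipients were female, and the mice were bought at 6 to 8 weeks of age. Neither group received a drug. The leukemia cells were kept in serum-containing medium before and after a sort, whose gate the labels do not give. Nothing states whether each library came from a separate mouse, so the p-values measure the spread between libraries, which may be partly technical. Only EBM cells were digested, so digestion and region cannot be told apart.

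Polycomb proteins keep genes silent and Trithorax proteins keep them active, and the Hox clusters are their best known shared targets. Polycomb repressive complex 2 (PRC2) methylates lysine 27 of histone H3, and Polycomb repressive complex 1 (PRC1) binds that mark and ubiquitinates histone H2A. KDM6A and KDM6B remove the mark, whereas KMT2A (MLL1) with menin methylates lysine 4 of histone H3 and DOT1L methylates lysine 79, both of which are linked to Hoxa expression in leukemia with rearranged MLL.

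Among the 10 genes, the largest difference was in the H3K27 demethylase gene Kdm6b, whose mean was 1.91-fold higher in EBM (404.5 ± 68.5 CPM, counts scaled to library size, against 212.1 ± 31.9 CPM in CBM, SD, n = 3). The log2 fold changes of the other 9 genes, EBM minus CBM, lay between -0.25 (Bmi1) and 0.21 (Dot1l). None of the 10 passed the threshold of 0.05 on edgeR's adjusted p, which 0 of 13352 genes passed (0%), and the smallest adjusted p over all genes was 0.0583. At an unadjusted p under 0.05, 1 of the 10 was higher in EBM, against 4.01% of all genes tested, and 0 were lower, against 3.9%. DESeq2 called 1 of the 10, Kdm6b, as higher, against 1.04% of all genes it tested. The groups did not overlap for 2 of the 10 genes that were higher in EBM (Kdm6b and Dot1l), against 7.47% of all genes, and for 2 that were lower (Bmi1 and Kmt2a), against 7.65%. The median absolute log2 fold change was 0.112 over the 10 genes and 0.148 over all genes tested. Since these are bulk libraries, a difference in a transcript between cells and a difference in the share of cells that carry it cannot be told apart.

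**Figure D1:**
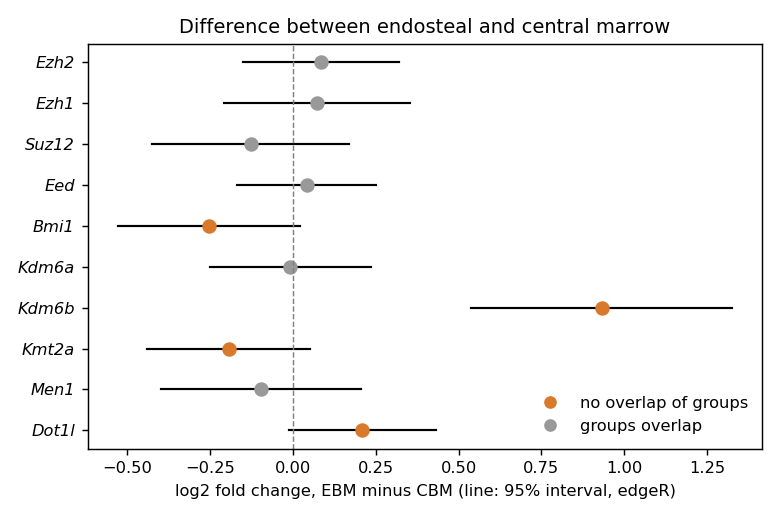
Log2 fold change of each of the 10 regulators, EBM minus CBM, with the 95% confidence interval of edgeR's quasi-likelihood fit (3 libraries in each group). Kdm6b sits at 0.93 with an interval from 0.54 to 1.33, and the intervals of the other 9 genes include 0.

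Counts on genes lay between 17078883 and 19462964 per library in CBM and between 16436526 and 18413131 in EBM. A floor of 3 counts is 0.149 to 0.193 CPM, which covers counting error only, because reads copied by PCR are not independent molecules. The least counted value of the 10 genes was 465 (Bmi1 in EBM replicate 3), far above that floor. The libraries spread most along a principal component (53% of the variance) on which both regions overlapped, and the next component (19.7%) set them apart. As for identity, Kit was counted 3046 to 4513 times and Runx1 was counted 5767 to 12694 times. Runx1t1, the mouse gene of the ETO part, was counted 350 to 743 times and the myeloid gene Mpo 29 to 643 times. By contrast the pan-leukocyte gene Ptprc was nearly absent, at 2 to 68 counts, and the erythroid markers summed to 2169 to 5644 CPM in CBM and 2569 to 4020 CPM in EBM. The 11 osteoblast and stromal markers summed to at most 1.56 CPM in any library, with Alpl, Sp7 and Bglap2 at 0 in all.

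Levels of different genes were compared as reads per kilobase of the deposited gene length and per unit of library size (RPKM). In CBM the order was Suz12 (35.1 ± 5.13, SD, n = 3), Kdm6b (30.5 ± 4.59), Ezh2 (29.5 ± 2.35), Kdm6a (26.0 ± 1.65), Dot1l (18.6 ± 1.13), Men1 (17.2 ± 2.03), Eed (15.7 ± 0.967), Ezh1 (10.8 ± 1.45), Kmt2a (10.6 ± 0.257) and Bmi1 (9.48 ± 0.991). Neighbours in that order overlapped in their library values, apart from Kdm6a, which was above Dot1l in every library, and Eed, which was above Ezh1 in every library. In EBM, Kdm6b stood at the top with 58.2 ± 9.85 RPKM and ranked 1 in each of the 3 libraries, compared with ranks 1, 3 and 3 in CBM replicates 1 to 3. Suz12 (32.1 ± 1.74) and Ezh2 (31.3 ± 1.83) followed and overlapped each other. The other neighbours whose EBM library values overlapped were Eed (16.2 ± 0.145) with Men1 (16.1 ± 1.63), and Kmt2a (9.22 ± 0.979) with Bmi1 (7.95 ± 0.377). Bmi1 was the lowest of the 10 in all 6 libraries and Kdm6a ranked 4 in all 6. By CPM, all 10 were above the median of the tested genes, from the 55.4th percentile for Bmi1 to the 95.9th for Kdm6b.

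**Figure D2:**
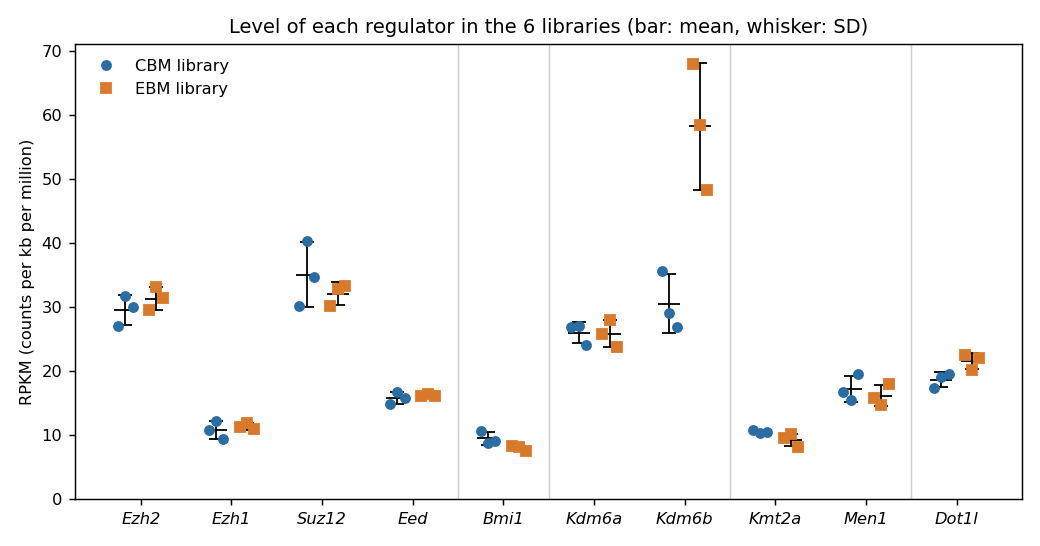
Level of each of the 10 regulators in RPKM in every library, CBM and EBM side by side, with the mean and SD of 3 libraries. Kdm6b is the gene whose EBM libraries (48.2 to 67.9 RPKM) lie well above its CBM libraries (26.9 to 35.7 RPKM).

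Among the core subunits of PRC2, no difference between regions was larger than the spread between libraries. Ezh2 encodes the main methyltransferase of the complex in dividing cells and lies on chromosome 6, from 47530139 to 47595341 on the minus strand (build GRCm38, as are all positions here). It was at 180.3, 211.4 and 199.7 CPM in CBM replicates 1 to 3 and at 196.5, 220.9 and 209.3 CPM in EBM replicates 1 to 3, so the groups overlap. The log2 fold change was 0.08 ± 0.099 (SE), with a 95% interval from -0.15 to 0.32 and an edgeR adjusted p of 0.927. Ezh1, its less active relative that predominates in resting cells (chromosome 11, from 101191115 to 101226463, minus strand), was at 80.4, 90.7 and 69.2 CPM in CBM and 83.3, 88.1 and 81.2 CPM in EBM. Its interval ran from -0.21 to 0.35. The ratio of Ezh2 to Ezh1 in RPKM was 2.50, 2.60 and 3.22 in CBM and 2.63, 2.79 and 2.87 in EBM, with means of 2.77 in both. Thus Ezh2 was the more abundant of the pair in every library.

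Eed encodes the subunit that reads the H3K27 mark and stimulates the enzyme (chromosome 7, from 89954654 to 89980983, minus strand). It had the least varied EBM values of the 10 genes, 61.7, 62.6 and 61.6 CPM, against 56.5, 63.9 and 60.3 CPM in CBM, and its interval of -0.17 to 0.25 was the narrowest of the 10. Suz12, a scaffold subunit needed for the stability of the complex (chromosome 11, from 79993106 to 80034123, plus strand), was more variable in CBM, at 148.9, 199.5 and 171.5 CPM, than in EBM, at 148.8, 162.4 and 164.6 CPM. CBM replicate 2 was the highest library and the groups overlapped, with a log2 fold change of -0.13 (95% interval -0.43 to 0.17). Without CBM replicate 2 it was -0.013, and without CBM replicate 1 it was -0.22. Per unit length, Suz12 was 2.22 ± 0.189 times Eed in CBM and 1.98 ± 0.104 times Eed in EBM, and Ezh2 was 1.87 ± 0.0390 times Eed in CBM and 1.93 ± 0.0994 times Eed in EBM (SD, n = 3).

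Bmi1 encodes a PRC1 subunit known for its part in self-renewal of blood stem cells and leukemia cells, and lies on chromosome 2, from 18677018 to 18686629 on the plus strand. It was at 42.2, 34.9 and 36.0 CPM in CBM and at 32.6, 32.3 and 29.9 CPM in EBM. Every EBM library was below every CBM library, but the highest EBM value and the lowest CBM value were close to each other. The log2 fold change was -0.25 ± 0.12 (SE, 95% interval -0.53 to 0.02), with an edgeR adjusted p of 0.665. Leaving out 1 library at a time gave -0.30 to -0.16, the value nearest to 0 being that without CBM replicate 1. An exact two-sided permutation test gave p = 0.1, the smallest that 3 libraries against 3 allow.

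The H3K27 demethylase genes are Kdm6b and Kdm6a. Kdm6b (JMJD3, chromosome 11, from 69398508 to 69413675, minus strand) is known as the inducible enzyme of the family, switched on by inflammatory and stress signals in macrophages. It was counted 4357, 3828 and 3765 times in CBM and 8557, 7290 and 5219 times in EBM, or 247.9, 201.5 and 186.8 CPM against 472.4, 405.8 and 335.3 CPM. All EBM libraries were above all CBM libraries, and the lowest EBM value was well clear of the highest CBM value. The log2 fold change was 0.93 ± 0.17 (SE, 95% interval 0.54 to 1.33), at rank 60 of the 13352 genes by p and rank 234 by fold change, and edgeR's p was 0.000863 before adjustment and 0.184 after it. DESeq2 gave the same log2 fold change of 0.93 and an adjusted p of 0.000187, so the call depends on the test. The exact permutation p was 0.1, again the smallest possible. Leaving out any single library kept the fold change between 0.80 and 1.06, and the edgeR adjusted p between 0.172 and 0.830.

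The X-linked Kdm6a (UTX, from 18162575 to 18279936, plus strand), which also serves in the KMT2C and KMT2D complexes, was at 224.5, 227.0 and 201.9 CPM in CBM and 216.1, 234.8 and 198.5 CPM in EBM. Its log2 fold change was -0.01, with a 95% interval from -0.25 to 0.23. Per unit length, Kdm6b was 1.33, 1.07 and 1.12 times Kdm6a in CBM and 2.64, 2.08 and 2.04 times Kdm6a in EBM. Relative to Ezh2, the writer of the mark that Kdm6b erases, Kdm6b was at 1.32, 0.916 and 0.899 in CBM and at 2.31, 1.76 and 1.54 in EBM. Neither ratio overlapped between regions.

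**Figure D3:**
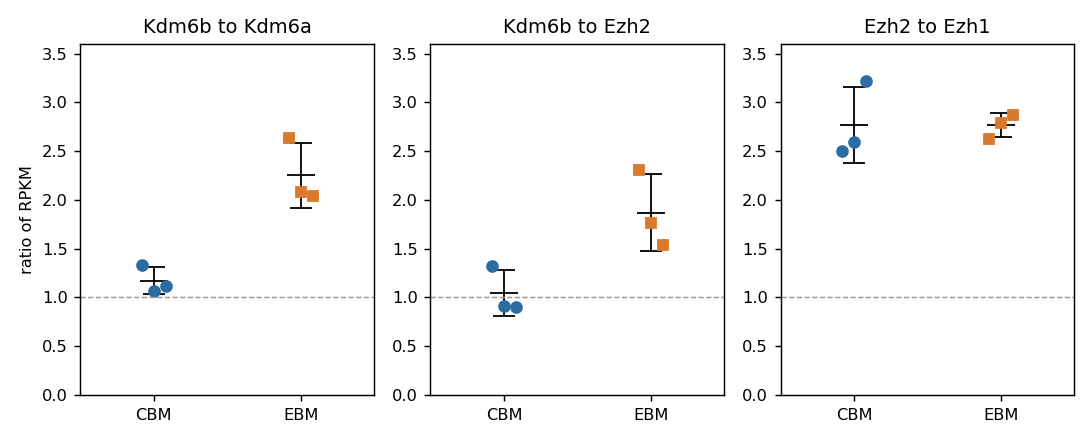
Ratios of RPKM within each library for Kdm6b to Kdm6a, Kdm6b to Ezh2 and Ezh2 to Ezh1, with the mean and SD of 3 libraries in each region (dashed line at 1). The first ratio averages 1.17 in CBM and 2.25 in EBM, the second 1.05 and 1.87, and the third 2.77 in both regions.

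Genes that respond to tissue dissociation were measured beside Kdm6b, because EBM cells alone were digested. EBM was the higher region for 13 of 18 such genes and the lower for 5, and their median log2 fold change was 0.47. An unadjusted p under 0.05 in edgeR was reached by 4 in the first direction and 1 in the second, against 4.01% and 3.9% of all genes tested. None passed after adjustment in edgeR. DESeq2 called 3 of the 18, where it called 175 of the 12619 genes it tested, 1.04% of them as higher. Its 3 calls were Hspa1a and Hspa1b as higher and Dusp1 as lower. The heat shock genes Hspa1a and Hspa1b, which encode inducible HSP70, stood highest, with log2 fold changes of 4.40 and 3.74. Hspa1a had 2 counts in each CBM library, below the floor of 3 counts, and 22 to 53 in EBM, so the size of its fold change is uncertain. The gene in the opposite direction at an unadjusted p under 0.05 was Dusp1, which encodes a MAP kinase phosphatase, at -1.13 (edgeR adjusted p = 0.361, DESeq2 adjusted p = 0.00982). The immediate early genes went both ways. Fos, Jun and Ier3 were at -1.31, -0.10 and -0.16 and did not pass at an unadjusted p under 0.05. Fosb (0.68), Ier2 (0.68), Junb (0.52), Jund (0.51) and Egr1 (0.38) were above 0, and of these Jund alone passed at that threshold in edgeR. Nfkbia, at 0.76, also passed there, with 653.2 to 1275 CPM in CBM and 1566 to 1821 CPM in EBM. Atf3, at 1.61, did not pass, with 2 to 16 counts in CBM and 12 to 30 in EBM. Of the 18 genes, the groups did not overlap for 5 higher and 1 lower (Dusp1), where the shares among all genes are 7.47% and 7.65%. The list summed to 13710, 9825 and 6854 CPM in CBM and 14060, 12190 and 13750 CPM in EBM. CBM replicate 1 had the highest sum of its group and also the highest Kdm6b, and it overlapped EBM in the sum but not in Kdm6b. The part of this response in the Kdm6b difference was not tested. Macrophage markers summed to 1.48 to 3.42 CPM in CBM and 1.54 to 4.01 CPM in EBM, and neutrophil markers to 3.32 to 224 CPM and 34.4 to 161 CPM. Of 20 proliferation genes, 9 were higher and 11 lower, with a median log2 fold change of -0.02 and none at an unadjusted p under 0.05 in edgeR and none called by DESeq2.

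On the Trithorax side, both genes had fold changes below 0 and neither passed the test. Kmt2a encodes the H3K4 methyltransferase whose gene is rearranged in MLL leukemia (chromosome 9, from 44803355 to 44881296, minus strand). It was at 180.6, 172.2 and 174.8 CPM in CBM and at 157.3, 167.8 and 135.8 CPM in EBM, where replicate 3 was the lowest. The groups did not overlap, with a log2 fold change of -0.19 ± 0.10 (SE, 95% interval -0.44 to 0.05) and an edgeR adjusted p of 0.713. It ranged from -0.27 to -0.12 when single libraries were left out, nearest to 0 without EBM replicate 3. Men1 encodes menin, which tethers KMT2A to its targets (chromosome 19, from 6334979 to 6340891, plus strand). Its values of 57.6, 53.6 and 67.3 CPM in CBM and 54.7, 50.7 and 61.8 CPM in EBM overlapped, with a 95% interval from -0.40 to 0.21. Kmt2a was at 0.618 ± 0.0694 of Men1 per unit length in CBM and 0.580 ± 0.117 in EBM (SD, n = 3).

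Dot1l encodes the only known H3K79 methyltransferase (chromosome 10, from 80755206 to 80795461, plus strand). It was at 151.1, 165.2 and 170.0 CPM in CBM and at 195.9, 175.4 and 191.0 CPM in EBM, so the groups did not overlap, although EBM replicate 2 lay close to CBM replicate 3. The log2 fold change was 0.21 ± 0.093 (SE, 95% interval -0.01 to 0.43), with an edgeR adjusted p of 0.650. Over Dot1l, Bmi1 and Kmt2a, the bounds of the intervals farthest from 0 were 0.43, -0.53 and -0.44, so changes larger than these lie outside the 95% intervals.

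The other genes of these complexes were followed through 7 lists of 83 genes in all, of which 77 were tested, including the 10. Among the 67 tested genes that are not of the 10, EBM was higher for 36 and lower for 31. Of the 67, an unadjusted p under 0.05 in edgeR was reached by 0 as higher, against 4.01% of all genes. It was reached by 3 as lower, near the share of 3.9% over all genes. The largest absolute log2 fold change was 0.50 (Kdm7a, which had 1 outlying CBM library). The smallest edgeR adjusted p was 0.325. Their median log2 fold change was 0.02, against 0.0017 for all genes tested. The groups did not overlap for 2 higher and 7 lower genes, where the shares among all genes are 7.47% and 7.65%. None of these genes reached the fold change of Kdm6b.

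In PRC1, the genes with the smallest p were Pcgf3 and Cbx6, both lower in EBM. Pcgf3, which encodes a subunit of variant PRC1, had a mean of 55.2 ± 1.82 CPM in CBM against 42.9 ± 0.133 CPM in EBM (SD, n = 3), a log2 fold change of -0.36 with an edgeR adjusted p of 0.325. Cbx6, whose product is a chromodomain reader of the H3K27 mark, was at 51.0 ± 1.61 and 39.1 ± 4.77 CPM (log2 fold change -0.39, edgeR adjusted p = 0.472). The catalytic subunit gene Rnf2 (RING1B) was at 34.2 ± 1.65 and 38.2 ± 2.17 CPM, and Rybp was at 25.0 ± 0.480 and 27.9 ± 3.81 CPM. In total 11 PRC1 genes were higher and 9 lower, and 3 of the 23 were too low to test. Around PRC2, the accessory subunit genes Aebp2 (0.19) and Phf1 (0.14) had the smallest p among those higher and Mtf2 (-0.19) and Phf19 (-0.06) among those lower, while core gene Rbbp7 was at 0.07. In the deubiquitinase complex PR-DUB, which removes the PRC1 mark, the log2 fold change was 0.29 for the enzyme gene Bap1, -0.32 for Asxl2 and -0.05 for Asxl1.

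In the COMPASS family of H3K4 methyltransferase complexes, to which that of KMT2A belongs, the smallest p was that of Kmt2d, an enhancer H3K4 methyltransferase gene. Its mean was 257.9 ± 17.5 CPM in CBM against 216.0 ± 18.8 CPM in EBM, a log2 fold change of -0.26 with an edgeR adjusted p of 0.621. Of 18 tested COMPASS genes, 7 were higher and 11 lower, with a median log2 fold change of -0.06. The groups did not overlap for 0 higher and 4 lower genes (Kmt2a, Kmt2c, Kmt2d and Hcfc2), where the shares among all genes are 7.47% and 7.65%. Kmt2d alone had an unadjusted p under 0.05 in edgeR. The shared core gene Wdr5 was at 0.15 and Cxxc1 at 0.12. In the list around Dot1l, 7 of 10 genes, Dot1l included, were higher and 3 lower, and none reached an unadjusted p under 0.05 in edgeR. The elongation factor gene Ell2 was at 210.3 ± 11.4 and 236.6 ± 9.98 CPM. The groups did not overlap for 2 higher genes (Dot1l and Ell2) and 0 lower, where the shares among all genes are 7.47% and 7.65%. The partner genes Mllt10 (-0.08) and Mllt3 (-0.27) were lower, and Mllt1 (0.11) and Mllt6 (0.18) were higher. Mllt3 had 208 counts in CBM replicate 2, against 57 and 81 in CBM replicates 1 and 3 and 62 to 101 in EBM. Among 15 demethylase genes, 7 were higher and 8 lower, with Kdm6b alone at an unadjusted p under 0.05. The next by p were Phf8 (0.09) among those higher and Kdm3b (-0.28) and Kdm7a (-0.50) among those lower, none of which passed.

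**Figure D4:**
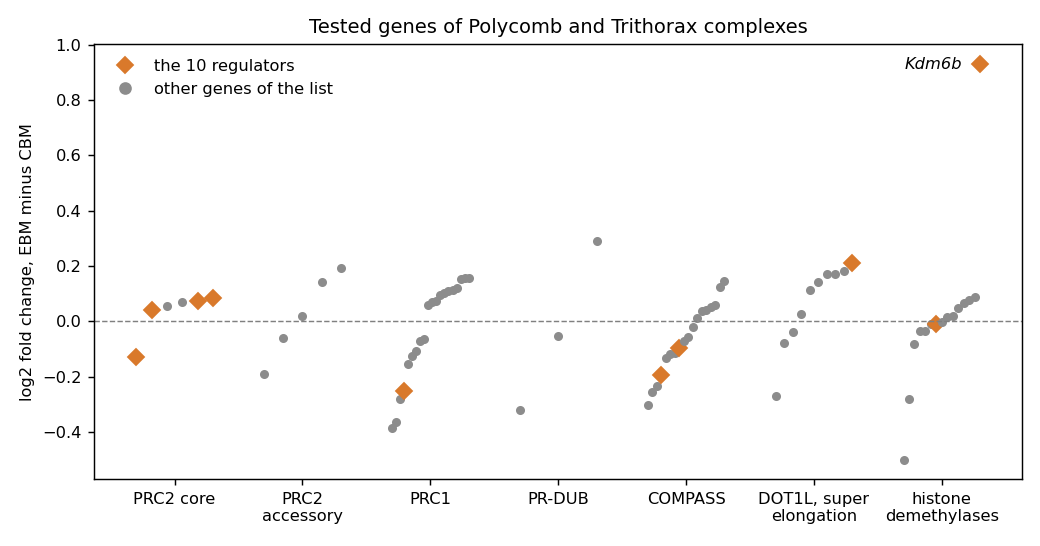
Log2 fold change, EBM minus CBM, of each tested gene in 7 lists of Polycomb and Trithorax complexes, with the 10 regulators as diamonds and the other genes as grey points, each ordered by value within its list. Kdm6b at 0.93 stands above all other genes, which lie between -0.50 and 0.29.

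The Hox genes, the targets these regulators are named for, were read in the same libraries. All 11 Hoxa genes had at most 2 counts in every library and 7 of them had 0 in all 6. For those at 0, a count of 0 in a library allows up to 0.149 to 0.193 CPM, so a level below that could not be seen. Therefore no Hoxa gene could be compared between EBM and CBM, while the 10 regulators averaged 8.71 to 44.3 RPKM over the 6 libraries. Over the 4 clusters, 33 of 39 Hox genes, counted by symbol, had at most 3 counts in any library. These other clusters were read after the Hoxa values had been seen.

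The 6 exceptions were Hoxb13 and 5 neighbours in the Hoxc cluster. Hoxc4 was counted 964, 2139 and 1636 times in CBM and 944, 1089 and 1637 times in EBM, a mean of 30.3 RPKM, which is close to Suz12 and Ezh2. Hoxb13 (chromosome 11, from 96194316 to 96197447) was steady, at 192, 194 and 266 counts in CBM and 193, 166 and 200 in EBM. Hoxc5 was counted 231 to 1087 times, Hoxc9 92 to 150 times, Hoxc6 22 to 45 times and Hoxc8 4 to 10 times, and the annotated span of Hoxc5 covers the other 3, so their reads are uncertain. The regions overlapped for all 6.

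**Figure D5:**
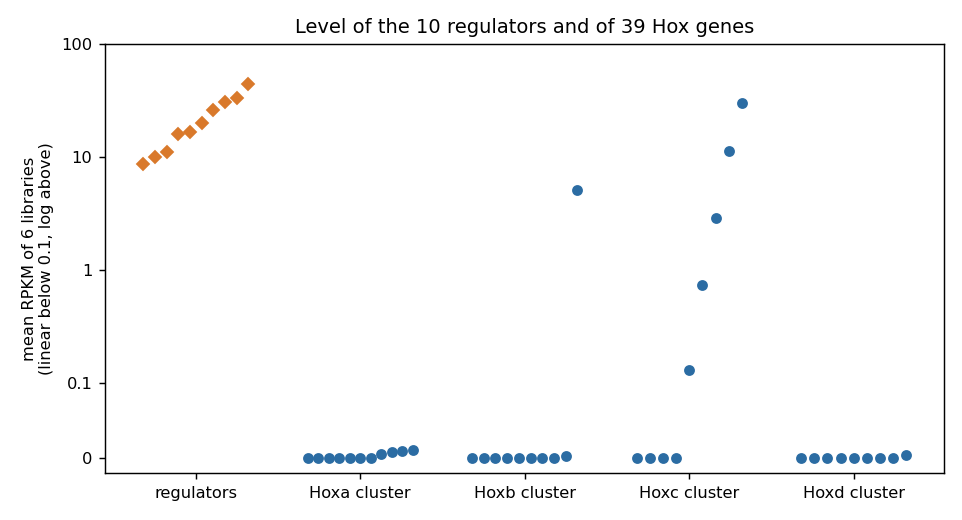
Mean level over the 6 libraries, in RPKM, of the 10 regulators (diamonds) and of 39 Hox genes by cluster (circles), on an axis that is linear below 0.1 and logarithmic above. The regulators lie between 8.71 and 44.3 RPKM, and all 11 Hoxa genes lie at or below 0.0106 RPKM.

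Genes with the pattern most like that of Ezh2 and of Kdm6b were sought among 8734 genes with a mean of at least 10 CPM, by the root mean square difference of log2 CPM over the 6 libraries after centring each gene on its mean. For Ezh2 the nearest 4 were Pcf11 (0.0177), Ddx52 (0.0256), Ankhd1 (0.0276) and Thoc1 (0.0303). For Kdm6b they were Sqstm1 (0.0984), Lmna (0.133), Gla (0.148) and Cln8 (0.156), all farther from Kdm6b than the 4 genes above were from Ezh2. These are descriptions over 6 libraries that share depth and handling.

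Reads of overlapping genes can be assigned to either one when strand is not used. In total 9 annotated genes overlap 6 of the 10 regulators and none overlaps the other 4. The overlapping gene with the most reads was Kdm6bos, which is antisense to Kdm6b and had 37 to 72 counts, and no overlapping gene exceeded 1.49% of its regulator's counts.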

How the data were processed

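RNA-seq libraries were made by the authors from rRNA-depleted RNA with a directional kit and sequenced as paired-end reads. The submitters' processing notes name HISAT2 2.0.5 and the genome build mm10. The counting tool and its strand setting are not given in the sources used here. The authors deposited raw read counts per gene, without normalization, with a gene length per gene, and gene positions were the same as in GENCODE M21 (GRCm38) for 98.3% of shared identifiers. For Men1 the deposited length was 3458 bases and the merged exons of M21 span 3835 bases, which lowers its RPKM by that ratio if M21 is used. The place of Men1 above Eed in CBM, and the ratio of Kmt2a to Men1, therefore depend on the length used.

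Counts were filtered with filterByExpr, scaled by TMM (factors 0.948 to 1.037) and tested with the quasi-likelihood F-test of edgeR 4.0.16 (R 4.3.3), with Benjamini-Hochberg adjustment over 13352 genes and a threshold of 0.05. The common dispersion was 0.0617. Exact permutation tests used log2 CPM with a prior count of 2 over 20 relabellings. CPM and RPKM used effective library sizes. Groups came from the sample titles. The counts of any pair of replicates of a group were farther apart than sampling noise (chi-square per degree of freedom 11.9 or more), so none was a repeated library. Alternatives were DESeq2 1.42.0, RLE size factors, every gene with at least 1 count, a replicate block, CPM without gene length, a prior count of 0.5 and each library left out in turn.

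The named genes were the 10 regulators, the 2 genes of smallest p among those higher and among those lower in each list of related genes, and the 4 genes nearest to Ezh2 and to Kdm6b. Genes named outside this rule were picked with their values in view. The members and lists were chosen with earlier results of these data known. On simulated data for this comparison (13060 genes), edgeR called 53.1% of genes changed by 1 on the log2 scale and 88.2% of those changed by 2. It also called 10 of 12869 unchanged genes. Each simulated gene had the dispersion typical of its level, and the libraries shared no spread like that of the first principal component. The real libraries are less regular, so these rates need not hold for them.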

Additional observations from a re-analysis of the deposited data

How the results depend on the processing

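The number of genes called was 0 in edgeR, 175 in DESeq2 and 40 in edgeR without a filter on low counts, and the number of the 10 regulators called was 0 in edgeR and 1 in DESeq2 (Kdm6b). The cause was not tested. Leaving out each library in turn gave 0 genes and 0 regulators called by edgeR. Kdm6b kept its direction in all alternatives, with an edgeR adjusted p of 0.188 with RLE size factors and 0.0572 without a filter. Small fold changes turned in sign when a library was left out: Eed to -0.0021 and Kdm6a to 0.015 without CBM replicate 1, Kdm6a to 0.023 without CBM replicate 2, Ezh1 to -0.023 and Men1 to 0.0017 without CBM replicate 3, and Kdm6a to 0.041 without EBM replicate 3. Their ranges over these fits were -0.0021 to 0.086 for Eed, -0.075 to 0.041 for Kdm6a, -0.023 to 0.17 for Ezh1 and -0.19 to 0.0017 for Men1. The other ranges were 0.025 to 0.14 for Ezh2 (lowest without CBM replicate 1, highest without CBM replicate 2), -0.22 to -0.013 for Suz12, -0.30 to -0.16 for Bmi1, -0.27 to -0.12 for Kmt2a and 0.16 to 0.25 for Dot1l. By CPM in place of RPKM, Kdm6a ranked 1 in CBM and 2 in EBM, and 7 regulators changed rank in each region.

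Libraries of the same number deviated together with r of 0.68, -0.20 and 0.20, so the numbers were not taken to pair the samples. With a replicate block, 0 genes and 0 regulators were called by edgeR, with 1203 genes at an unadjusted p under 0.05 against 1056 without it. Kdm6b then had a log2 fold change of 0.93 and an edgeR adjusted p of 0.188. Its edgeR p before adjustment was 2e-04 with the block and 0.000863 without it.

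With 3 libraries in each group, the exact permutation test cannot reach 0.05. The 95% intervals of the 9 regulators other than Kdm6b include 0 and reach from -0.53 to 0.43 on the log2 scale. Replicates differed by far more than counting error (chi-square per degree of freedom from 11.9 to 69).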
